A study of Mus musculus with 12 samples.

Results

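The retinoblastoma family and the E2F factors are the switch between proliferation and cell cycle exit, and 10 of their genes were followed here through muscle differentiation by their promoter chromatin. The genes were chosen by name out of 55413 annotated genes, 21938 of them protein-coding. They are the pocket proteins Rb1, Rbl1 and Rbl2, the activating factors E2f1, E2f2 and E2f3, the repressive factors E2f4 and E2f5, and the atypical factors E2f7 and E2f8. The cells were C2C12, a mouse myoblast line that leaves the cell cycle and fuses into multinucleated myotubes when serum is lowered, here to 2% horse serum. Cells were taken at day 0, at day 1, and at day 5, when light trypsin treatment separated myotubes from reserve cells, the mononucleated cells that remain. Each of the 4 states had 1 CUT&RUN library against H3K4me3 (a mark that histones carry at active promoters), 1 against MBD2, a methyl-CpG binding protein of the NuRD complex, and 1 with control IgG, which was not analysed here. In CUT&RUN an antibody tethers a nuclease to chromatin, and the DNA cut free around the bound sites is sequenced.

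Pocket proteins bind E2F factors and recruit repressors to genes of DNA replication and mitosis. Cyclin-dependent kinases phosphorylate pocket proteins and release the E2F factors, and the CDK inhibitors hold these kinases in check. In muscle, Rb1 is known for making the cell cycle exit of myotubes permanent, while Rbl2 with E2f4 forms repressive complexes in quiescent cells. E2f7 and E2f8 bind DNA without a dimer partner and repress E2F target genes late in the cycle.

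The state labels were checked against marker genes. Of 10 myoblast and myotube genes, 3 (Myod1, Myf5 and Des) had H3K4me3 at day 0, all 10 at day 1 and in myotubes, and all but Myh3 in reserve cells. Of 5 reserve cell genes, Pax7, Spry1, Hey1 and Heyl were marked in all 4 libraries, myotubes included, and Cd34 in all but myotubes. Of 10 genes of blood, liver, fat, endothelial, epithelial and nerve cells, none was marked at day 0 or in reserve cells, Pecam1 was at day 1, and Cd68 and Cdh1 were in myotubes. The H3K4me3 lists held 15920 to 26034 peaks. The day 0 MBD2 list held 14948 peaks and the later ones 452, 288 and 111. With 1 library per state no difference has a replicate check, so no test was made and values are given side by side.

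Several E2F genes are textbook targets of E2F factors themselves, so promoters were searched for E2F letters. RefSeq promoters (GRCm38.p6, the build called mm10), 250 bases before to 50 after a start, were found for 7 of the 10 genes, with 9 promoters in all, and not for Rb1, E2f4 and E2f5. They follow RefSeq starts: the E2f1 promoter lies 216 to 515 bp inside the gene as annotated here, so the bases upstream of that 5′ end were not searched, and the E2f2 promoter shown lies 71 to 370 bp upstream of that gene's 5′ end. A further E2f2 promoter lies 8138 to 8437 bp inside its gene, and a further E2f3 promoter 1422 to 1721 bp inside. The letters were TTTCCCGC, TTTCGCGC, TTTGGCGC and TTTGCCGC on both strands, and no match overlapped a CCAAT match. At least 1 was present in 4 of the 9 promoters, at Rbl1, E2f2, E2f3 and E2f7. The share was 2.26% of all 32851 promoters and 4.02% of the 12402 of protein-coding genes with H3K4me3 at day 0. Each of the searched runs of letters holds a CpG. The median number of CpG was 29 in the 9 promoters, 21 in the 12402 and 7 in all, and its part in the matches was not tested. The 4 promoters are shown with the match in capitals, on the strand of the gene: Rbl1 (chr2:157204485-157204784), E2f2 (chr4:136172024-136172323), E2f3 (chr13:29986014-29986313) and E2f7 (chr10:110745189-110745488).
Rbl1: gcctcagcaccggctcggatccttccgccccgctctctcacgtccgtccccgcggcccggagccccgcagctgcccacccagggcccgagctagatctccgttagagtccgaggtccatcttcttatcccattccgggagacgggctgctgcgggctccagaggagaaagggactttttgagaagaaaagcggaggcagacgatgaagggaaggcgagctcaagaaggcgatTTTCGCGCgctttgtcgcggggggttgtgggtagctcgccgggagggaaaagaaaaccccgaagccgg
E2f2: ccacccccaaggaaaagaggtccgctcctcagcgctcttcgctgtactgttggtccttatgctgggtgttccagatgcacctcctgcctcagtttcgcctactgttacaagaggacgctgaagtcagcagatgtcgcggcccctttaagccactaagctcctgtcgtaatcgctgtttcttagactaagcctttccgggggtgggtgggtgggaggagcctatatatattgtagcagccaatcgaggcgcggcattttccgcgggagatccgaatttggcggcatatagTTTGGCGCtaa
E2f3: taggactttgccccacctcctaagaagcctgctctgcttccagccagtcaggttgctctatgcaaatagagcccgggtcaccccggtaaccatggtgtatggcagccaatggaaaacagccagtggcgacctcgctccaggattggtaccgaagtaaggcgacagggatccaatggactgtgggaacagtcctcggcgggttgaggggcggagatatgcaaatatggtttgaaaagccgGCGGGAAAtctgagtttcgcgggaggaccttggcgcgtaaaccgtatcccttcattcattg
E2f7: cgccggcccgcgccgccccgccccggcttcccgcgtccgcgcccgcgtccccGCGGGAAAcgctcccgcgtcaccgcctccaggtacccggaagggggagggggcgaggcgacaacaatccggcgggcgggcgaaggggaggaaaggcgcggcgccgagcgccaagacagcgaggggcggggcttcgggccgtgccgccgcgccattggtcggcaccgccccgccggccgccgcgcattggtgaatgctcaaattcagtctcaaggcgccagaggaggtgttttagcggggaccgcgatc
The match lay 11 to 18 bases before the start at Rbl1, 4 to 11 before it at E2f3, 191 to 198 before it at E2f7, and at bases 40 to 47 of the RefSeq transcript at E2f2. At E2f3 and E2f7 it read GCGGGAAA, the reverse complement of TTTCCCGC. The pentamer CCAAT, bound by NF-Y and frequent at cell cycle promoters, was present on either strand at E2f2, E2f3, E2f7 and E2f8. It was in 5 of the 9 promoters, the E2f2 promoter inside the gene among them, beside 37.4% of all. A match is a description of the letters and not of binding.

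All 10 genes carried H3K4me3 at their promoter, the 1 kb either side of any annotated transcript start, in all 4 libraries. Among all protein-coding genes the share was 56.5% for day 0, 56.2% for day 1, 57.3% for myotubes and 54.8% for reserve cells. Single genes of the family differed between libraries in how far the mark extended. Breadth is the number of bases under peaks within 5 kb either side of the gene's 5′ end. Its median over the 10 genes was 3135 bp for day 0, 2956 bp for day 1, 3638 bp for myotubes and 2800 bp for reserve cells, where all marked protein-coding genes had 2799, 2538, 2497 and 2223 bp. Within 2 kb of the 5′ end the myotube median was below that of day 0 (2694 and 3021.5 bp). Gene by gene, 5 of the 10 were broader and 5 narrower in myotubes than at day 0, with a median log2 ratio of 0.03. The median over all protein-coding genes was -0.15, and their share broader at any size was not computed. These are bulk samples, so fewer cells with the mark and a narrower mark in each cell cannot be told apart. Each comparison with day 0 uses the same day 0 library.

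**Figure D1:**
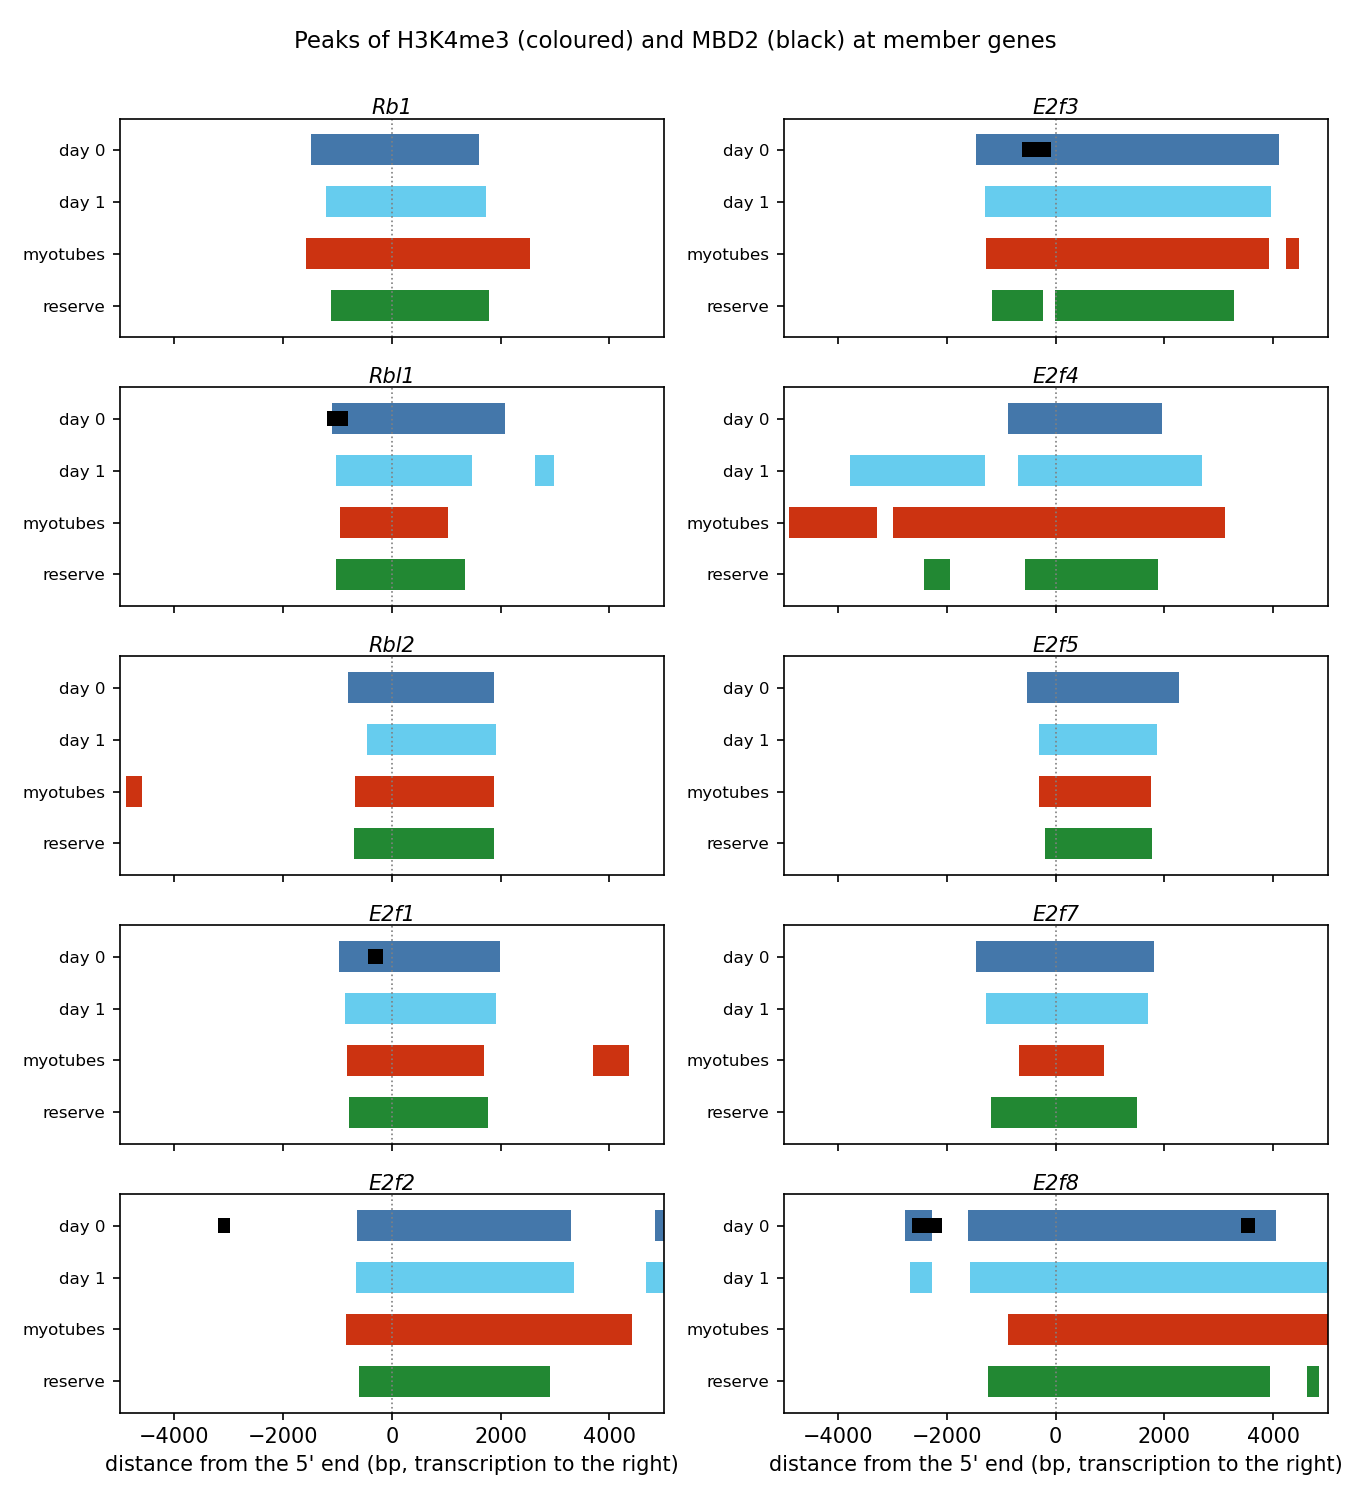
Peaks of H3K4me3 (coloured bars, 1 row per library) and MBD2 (narrow black bars) around the 5′ end of each of the 10 genes, with distance from the 5′ end in bp on the horizontal axis and transcription to the right. H3K4me3 covers the 5′ end of every gene in every library, the E2f7 bar is shortest in myotubes (1560 bp), the E2f4 bar is longest there (6106 bp), and black bars appear in day 0 rows.

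At day 0 the genes fell into a broad and a narrow set. E2f8 had 6143 bp, E2f3 5571 bp and E2f2 4102 bp, while the other 7 genes lay between 2689 bp (Rbl2) and 3267 bp (E2f7). All 10 genes had more H3K4me3 downstream of the 5′ end than upstream at day 0. In the broad set this was 4048 bp downstream against 2094 bp upstream at E2f8, 4115 against 1455 bp at E2f3, and 3468 against 633 bp at E2f2, and in the narrow set it ran to 2263 against 518 bp at E2f5. The share of all protein-coding genes with more of the mark downstream was not computed. The 5′ end is the outermost annotated start of a gene, so any other start falls on the downstream side. E2f3 has annotated starts 1672 bp apart, and a peak of 5571 bp (mm10 chromosome 13, 29981948 to 29987518) covered both. At E2f8 an antisense noncoding gene, Gm2788, has a start 296 bp inside the gene and others 3571 to 3638 bp inside. All of these starts lay under H3K4me3 in all 4 libraries, and the mark of Gm2788 cannot be told apart from that of E2f8.

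Of the pocket proteins, Rb1, the retinoblastoma protein itself (mm10 chromosome 14, 73183673 to 73325822, minus strand), had its broadest mark in myotubes. Its breadth was 3085 bp for day 0, 2937 bp for day 1, 4108 bp for myotubes and 2924 bp for reserve cells. Myotubes stood above the other 3 libraries, which lay between 2924 and 3085 bp. The added bases were inside the gene: the peak reached 1602 bp downstream of the 5′ end at day 0 and 2535 bp in myotubes, against 1482 and 1572 bp upstream. The summit stayed 301 to 339 bp upstream in all 4 libraries. A separate H3K4me3 peak inside Rb1, 3441 bp long at day 0 and 3243 bp in myotubes, lay at the start of Lpar6, a lysophosphatidic acid receptor gene within the Rb1 locus.

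Rbl1, the pocket protein made mainly in cycling cells (chromosome 2, 157145893 to 157204534, minus strand), was narrower after day 0. It had 3185, 2836, 1978 and 2368 bp, listed as day 0, day 1, myotubes and then reserve cells, as for the genes that follow. Myotubes were lowest, at 0.621 times day 0. Here too the difference was inside the gene, with 2084 bp downstream at day 0 and 1031 bp in myotubes, and 1100 and 946 bp upstream. Rbl2, the pocket protein of quiescent cells (chromosome 8, 91070057 to 91123844, plus strand), had 2689, 2373, 2852 and 2580 bp, of which 304 bp in myotubes came from a separate weak peak 4595 to 4898 bp upstream (fold enrichment 3.81). Its downstream edge moved little, from 1874 to 1908 bp over the 4 libraries.

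The activators were close to or above their day 0 breadth in myotubes. E2f1, which drives entry into S phase (chromosome 2, 154559407 to 154569892, minus strand), had 2958, 2773, 3168 and 2558 bp. The myotube value includes a separate peak of 648 bp, 3705 to 4352 bp inside the gene (fold 5.14), and its promoter peak alone was 2520 bp long there, shorter than at day 0. E2f2 (chromosome 4, 136172394 to 136196057, plus strand), a factor of the same group, had 4102, 4337, 5260 and 3504 bp. In myotubes 1 peak reached 4420 bp into E2f2, where day 0 and day 1 each had a promoter peak ending at 3300 and 3342 bp and a further weak peak beginning at 4833 and 4674 bp. E2f3 (chromosome 13, 29906575 to 29986063, minus strand), the third activator, had 5571, 5266, 5449 and 4243 bp, so reserve cells were lowest. In reserve cells its promoter H3K4me3 was split into a peak of 3302 bp and a peak of 941 bp, with a gap of 213 bp from 17 to 229 bp upstream of the 5′ end.

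The repressive factors diverged. E2f4, the most abundant E2F of many quiescent and differentiated cells (chromosome 8, 105297663 to 105305370, plus strand), had 2837, 5889, 7736 and 2931 bp. The reserve cell value includes a separate weak peak of 486 bp, 1940 to 2425 bp upstream (fold 4.32). The promoter peak alone was 2445 bp long there, shorter than at day 0. Day 1 and myotubes stood apart from the other libraries, at 2.08 and 2.73 times day 0. At day 1, 2494 bp of this was a separate peak 1294 to 3787 bp upstream (fold 8.87), and the promoter peak alone was 3395 bp long, so that E2f4 did not pass 1.5 times by promoter peak length, within 2 kb or within 10 kb. In myotubes the promoter peak itself was 6106 bp long. Most of this lay upstream, where 873, 3190, 4624 and 1050 bp were covered. Within 2 kb of the 5′ end the log2 ratio of myotubes to day 0 was 0.50, against 1.45 within 5 kb. Exoc3l, which encodes an exocyst-like protein, starts on the other strand 1565 bp upstream of E2f4, and the mark of the 2 genes cannot be told apart there. H3K4me3 covered the Exoc3l start at day 1 and in myotubes, and ended 692 bp short of it at day 0. In reserve cells the nearest peak to that start was the separate weak one, 375 bp from it on the far side, inside Exoc3l. The E2f4 promoter peak reached 564 bp upstream of the 5′ end in reserve cells, against 873 bp at day 0. On the E2f4 side the mark was also longer: 1963, 2698, 3111 and 1880 bp downstream. E2f5 (chromosome 3, 14578641 to 14606309, plus strand), which also partners with pocket proteins, had 2782, 2177, 2060 and 1978 bp, with day 0 above the 3 later libraries.

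The atypical repressors differed from each other. E2f7 (chromosome 10, 110745439 to 110787384, plus strand) had 3267, 2975, 1560 and 2676 bp. The myotube value was 0.478 times day 0, the lowest ratio of the 10 genes, and 3.71% of protein-coding genes marked in both libraries had a lower one. Both sides of E2f7 were shorter in myotubes, with 670 bp upstream and 889 bp downstream against 1465 and 1801 bp at day 0. E2f8 (chromosome 7, 48866429 to 48881596, minus strand) kept 6143, 6961, 5882 and 5396 bp. Upstream it had 2094, 1960, 881 and 1236 bp, while the mark filled all 5000 bp downstream at day 1 and in myotubes.

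**Figure D2:**
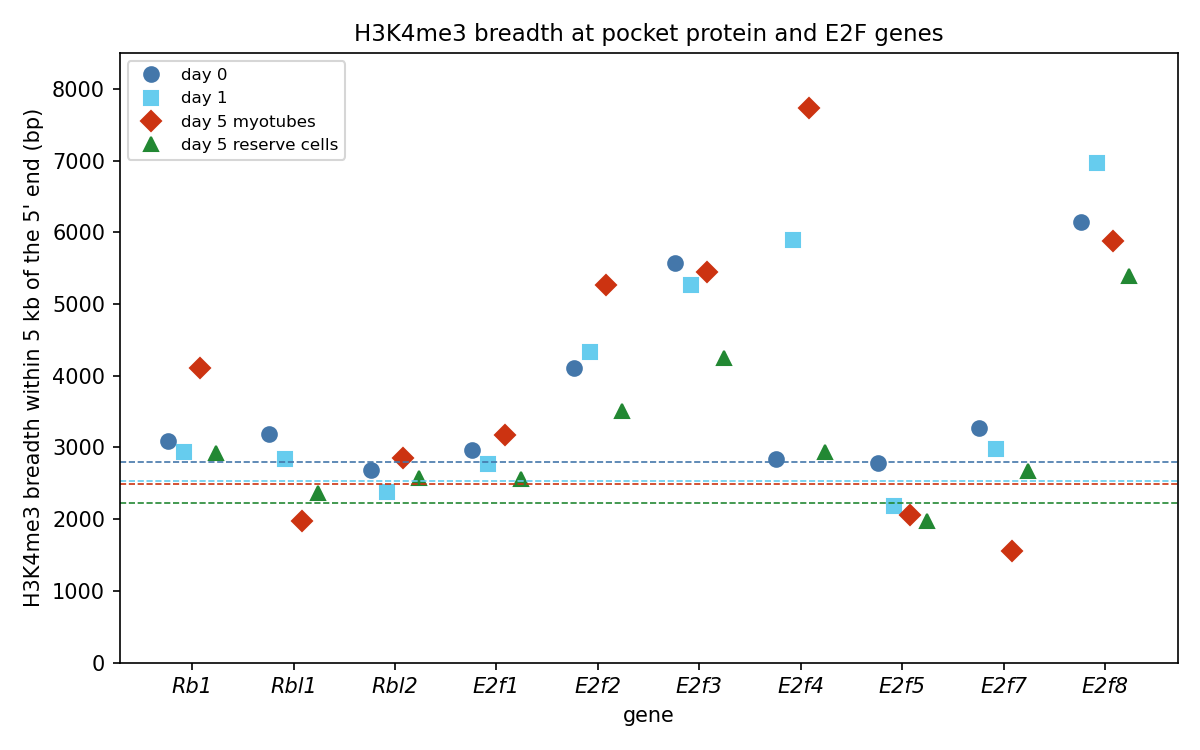
H3K4me3 breadth in bp (vertical axis) of each gene in the 4 libraries, 1 symbol per library, with dashed lines at the median of all marked protein-coding genes in the library of that colour. Myotube symbols lie highest at Rb1 (4108 bp), Rbl2 (2852 bp), E2f1 (3168 bp), E2f2 (5260 bp) and E2f4 (7736 bp), and lowest at Rbl1 (1978 bp) and E2f7 (1560 bp).

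A difference of 1.5 times in breadth served as a fixed size. Between day 0 and day 1, 0 of the 10 genes were narrower by that much, beside 5.25% of protein-coding genes marked in both libraries, and 1 was broader (E2f4), beside 1.16%. In myotubes against day 0, 2 were narrower (Rbl1 and E2f7), beside 13.2%, and 1 broader (E2f4), beside 6.61%. In reserve cells against day 0 none of the 10 passed in either direction, where 19.3% of genes were narrower and 0.793% broader. In myotubes against reserve cells 1 was narrower (E2f7, 0.583 times), beside 2.75%, and 2 were broader (E2f4 2.64 times, E2f2 1.501 times, at the limit), beside 15.9%. The myotube counts of 2 and 1 among 10 genes are near the shares over all genes. Of the 4 genes whose promoters held E2F letters, Rbl1 and E2f7 were narrower in myotubes by 1.5 times, while E2f2 and E2f3 had 1.28 and 0.978 times their day 0 breadth.

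Breadth over all protein-coding genes was itself lower after day 0. The median log2 ratio to day 0 was -0.14 for day 1, -0.15 for myotubes and -0.34 for reserve cells. Relative to it, 7 of the 10 genes were above the median gene in each of the 3 comparisons. The 3 below were Rbl1, E2f5 and E2f7 in myotubes, where relative to the median the log2 ratio was -0.53, -0.28 and -0.91, so that Rbl1 no longer passed 1.5 times and E2f7 did. It was 1.60 for E2f4, 0.57 for Rb1 and 0.51 for E2f2. In reserve cells E2f7 was at 0.06 relative to the median gene, with an unadjusted log2 ratio of -0.29, near that of the median gene. Background coverage of the H3K4me3 libraries ran from 1.08 to 1.47 fragments per base, highest at day 0, and its part in the breadth was not tested.

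Promoter peaks were compared within each list by the authors' fold enrichment, which depends on the local background as well as on the pileup, the fragments at the summit. E2f1 led the 10 genes at day 0 with a fold of 88.6, above which lay 2.30% of that list, and E2f2 followed with 81.4. The median fold was 29.0 over the day 0 list and 9.55 over the myotube list. In myotubes the same 2 genes stood at 30.0 and 24.3, were 7th and 9th of the 10, and had 28.8% and 35.0% of the list above them. By pileup E2f2 was 5th there (109 fragments), since its local background was 3.52 fragments per base against 1.22 at E2f3. E2f3 had the highest fold of the 10 at day 1 (96.2) and in myotubes (70.6), and Rbl2 in reserve cells (108.5). Above these lay 3.65%, 0.630% and 0.810% of their lists. E2f7 was lowest in myotubes (12.2, with 45.9% of the list above) and in reserve cells (32.8, with 56.2% above). It was also lowest by pileup in both (43 and 87 fragments). At day 0 its fold was 68.8, with 9.34% of that list above. E2f4 was lowest by fold at day 0 (30.3) over a local background of 3.89, while Rb1 was lowest by pileup (108 against 147 at E2f4). Rbl2, 8th by fold at day 0, was level with E2f1 by pileup (218). Rbl1, narrower in myotubes, still had the second highest fold there (55.8), with 123 fragments, against 43 at E2f7.

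**Figure D3:**
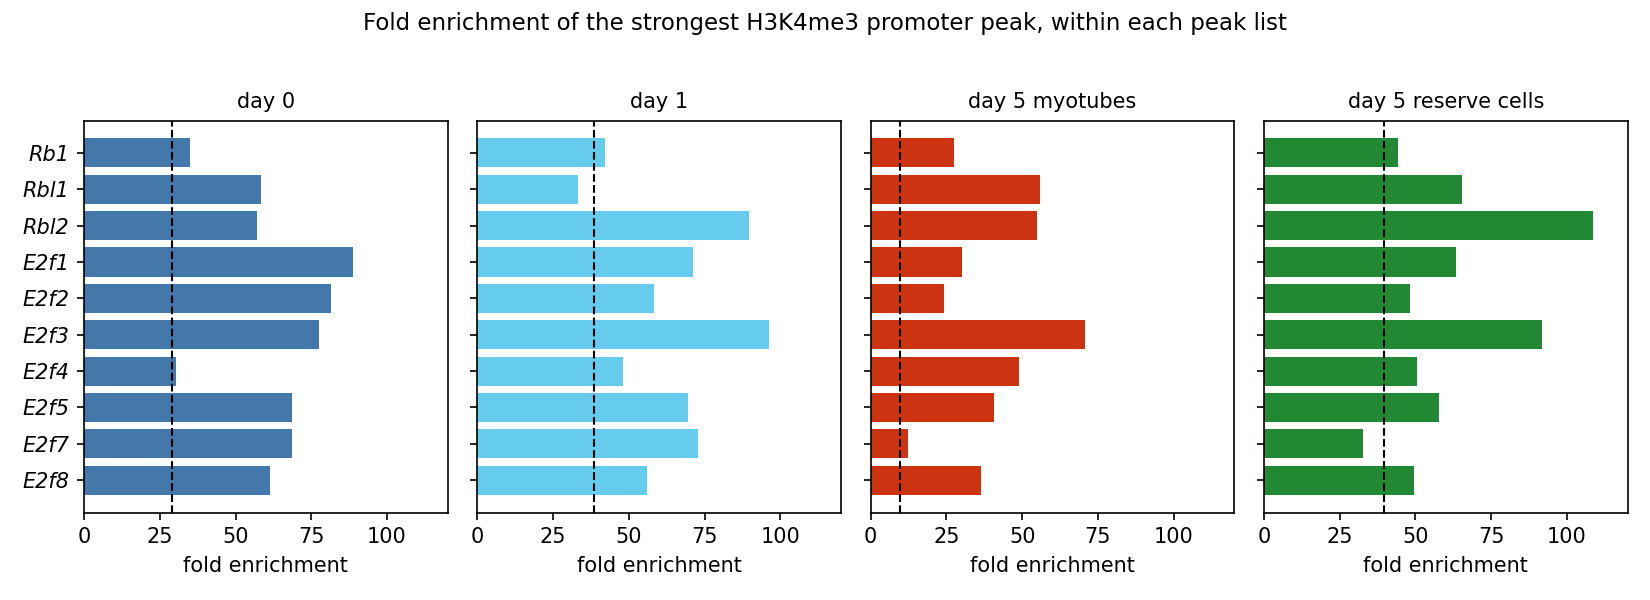
Fold enrichment (horizontal axis, the authors' ratio of pileup to local background) of the strongest H3K4me3 promoter peak of each gene, 1 panel per library, with a dashed line at the median of all peaks of that list. Lengths are compared within a panel: E2f1 is longest at day 0 (88.6), E2f3 at day 1 (96.2) and in myotubes (70.6), Rbl2 in reserve cells (108.5).

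MBD2 was called at the promoters of E2f1, E2f3 and Rbl1 at day 0 and at none of the 10 in the later libraries. The count of 3 stands beside 11.1% of all protein-coding genes and 19.0% of those with H3K4me3 at day 0. For day 1, myotubes and reserve cells 0.998%, 0.620% and 0.251% of protein-coding genes were called, from far shorter lists. The background coverage of the MBD2 libraries was 0.360, 0.286, 0.776 and 0.947 fragments per base, and its part in the number of calls was not tested. The 3 peaks were close to the middle of the day 0 list. Each had 7 fragments over its summit and a fold of 5.74 (E2f1 and E2f3) or 5.88 (Rbl1), next to a list median of 5.88. The E2f1 peak lay 172 to 433 bp upstream of the 5′ end, the E2f3 peak 79 to 627 bp upstream, and both were inside the H3K4me3 peak. The Rbl1 peak lay 806 to 1201 bp upstream, across the outer edge of H3K4me3, which ended 1100 bp upstream.

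With peaks within 5 kb counted, 5 of the 10 genes had MBD2 at day 0, beside 23.7% of protein-coding genes with H3K4me3. At E2f8 a peak of 557 bp lay 2092 to 2648 bp upstream, with 10 fragments and a fold of 8.09, the highest among these genes, and overlapped a small H3K4me3 peak there. Another peak (fold 5.15) lay 3416 to 3660 bp inside E2f8, over the Gm2788 starts there. The E2f2 peak, 2977 to 3191 bp upstream, had 4 fragments and a fold of 3.59. Further inside the genes MBD2 was called at Rbl1 (fold 6.43), Rbl2 (5.02) and E2f2 (5.15). No MBD2 peak was found within 5 kb of, or inside, Rb1, E2f4, E2f5 or E2f7 in any library.

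MBD2 binds DNA by methylated CpG, so the sequence under the promoter peaks is shown with each CpG in capitals, on the strand of the gene (mm10, from the RefSeq genome). The E2f1 peak is shown whole (chr2:154570064-154570325), and the E2f3 (chr13:29986247-29986546) and Rbl1 (chr2:157205431-157205730) peaks by 300 bases around the summit.
E2f1: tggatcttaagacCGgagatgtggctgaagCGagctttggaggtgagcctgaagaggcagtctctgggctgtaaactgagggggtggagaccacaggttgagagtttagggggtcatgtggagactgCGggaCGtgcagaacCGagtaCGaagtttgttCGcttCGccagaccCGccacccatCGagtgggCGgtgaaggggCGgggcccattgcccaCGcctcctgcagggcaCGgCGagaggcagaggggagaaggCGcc
E2f3: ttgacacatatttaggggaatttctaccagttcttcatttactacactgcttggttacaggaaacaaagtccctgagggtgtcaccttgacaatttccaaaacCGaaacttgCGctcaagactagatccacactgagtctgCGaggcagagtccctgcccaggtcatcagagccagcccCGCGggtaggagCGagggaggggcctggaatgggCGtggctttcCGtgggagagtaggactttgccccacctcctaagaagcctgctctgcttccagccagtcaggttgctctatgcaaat
Rbl1: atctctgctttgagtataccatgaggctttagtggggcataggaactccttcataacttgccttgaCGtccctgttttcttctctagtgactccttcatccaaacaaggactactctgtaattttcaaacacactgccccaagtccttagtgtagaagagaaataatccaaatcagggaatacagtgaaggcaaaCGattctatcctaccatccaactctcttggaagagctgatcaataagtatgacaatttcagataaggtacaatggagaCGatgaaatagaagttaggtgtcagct
The E2f1 peak held 16 CpG in 262 bases, and the E2f3 and Rbl1 stretches 8 and 3 in 300. In windows of 300 bases around the summit, MBD2 peaks at promoters of protein-coding genes had a median of 15 CpG (n = 2281, middle 50% 8 to 22), and other MBD2 peaks 3 (n = 12667). The window of E2f1 held 13, so E2f1 was near the median of promoter peaks and Rbl1 near that of the peaks elsewhere. The upstream E2f8 peak, the strongest of the group, held 1. Methylation was not measured.

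The genes around the family were read from lists of its partners, regulators and targets. Of 35 textbook E2F target genes, all 35 had H3K4me3 outside myotubes, and 34 had it in myotubes, where Ccnb2, cyclin B2, had none. In myotubes 23 of the 33 with breadth in both libraries were narrower than at day 0 by 1.5 times, beside 13.2% of protein-coding genes, and none was broader. Their median log2 ratio was -0.77, and for the 10 pocket protein and E2F genes it was 0.03. The lowest were Tk1, thymidine kinase, with 6752 bp for day 0 and 2288 bp for myotubes, and Mcm10, a replication initiation factor, with 1950 and 696 bp. Brca1, a DNA repair gene, was the 1 target with a broader mark (4217 and 4798 bp). In reserve cells 18 of 34 targets were narrower by 1.5 times, beside 19.3% of protein-coding genes, with a median log2 ratio of -0.59 beside -0.34. The difference between targets and regulators was not tested.

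Among the 9 dimer and MuvB partners, 4 were narrower by 1.5 times in myotubes, beside 13.2% of protein-coding genes, and 0 broader, beside 6.61%. Mybl2, a B-Myb factor of cycling cells, had 2452 bp for day 0 and 1200 bp for myotubes, and Foxm1, a mitotic activator, 4933 and 2531 bp. Lin37, a subunit of the repressive complex, had 5025 and 5295 bp, and Tfdp1, the main E2F dimer partner, 3589 and 1962 bp. Of the 9 cyclins and kinases, 5 were narrower, beside the same 13.2%, led by Ccnd1 (8282 and 2114 bp), cyclin D1, and Ccna2 (3516 and 1416 bp), cyclin A2. Ccnd3, cyclin D3, which differentiating muscle keeps, had 4052 and 4275 bp.

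The CDK inhibitors and the chromatin regulators were near the shares over all genes, 13.2% narrower and 6.61% broader. Of 5 CDK inhibitors marked in both libraries 0 were narrower and 1 broader, Cdkn1c (611 bp at day 0, 943 bp in myotubes). At any size, 3 of the 5 were lower in myotubes and 2 higher. The largest falls were at Cdkn1b (8051 and 6056 bp) and Cdkn2d (6066 and 5216 bp). Cdkn1a, the inhibitor p21, had 3509 and 5016 bp. At Cdkn2a and Cdkn2b no promoter peak of either antibody was called in any library, and whether these cells hold that DNA was not examined. Of 12 chromatin regulators that work with pocket proteins 0 were narrower and 1 broader, Kmt5b, a histone H4 methyltransferase, with 4210 and 6976 bp. At any size, 10 of the 12 were lower in myotubes and 2 higher. The largest falls were at Suv39h1 (2899 and 2077 bp) and Rbbp7 (3792 and 3108 bp), and Hdac2 (2776 and 2804 bp) was the other rise. The counts at any size have no share over all protein-coding genes beside them, since none was computed. The median log2 ratio was -0.04 for the inhibitors and -0.11 for the chromatin regulators, beside -0.15 for all protein-coding genes.

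**Figure D4:**
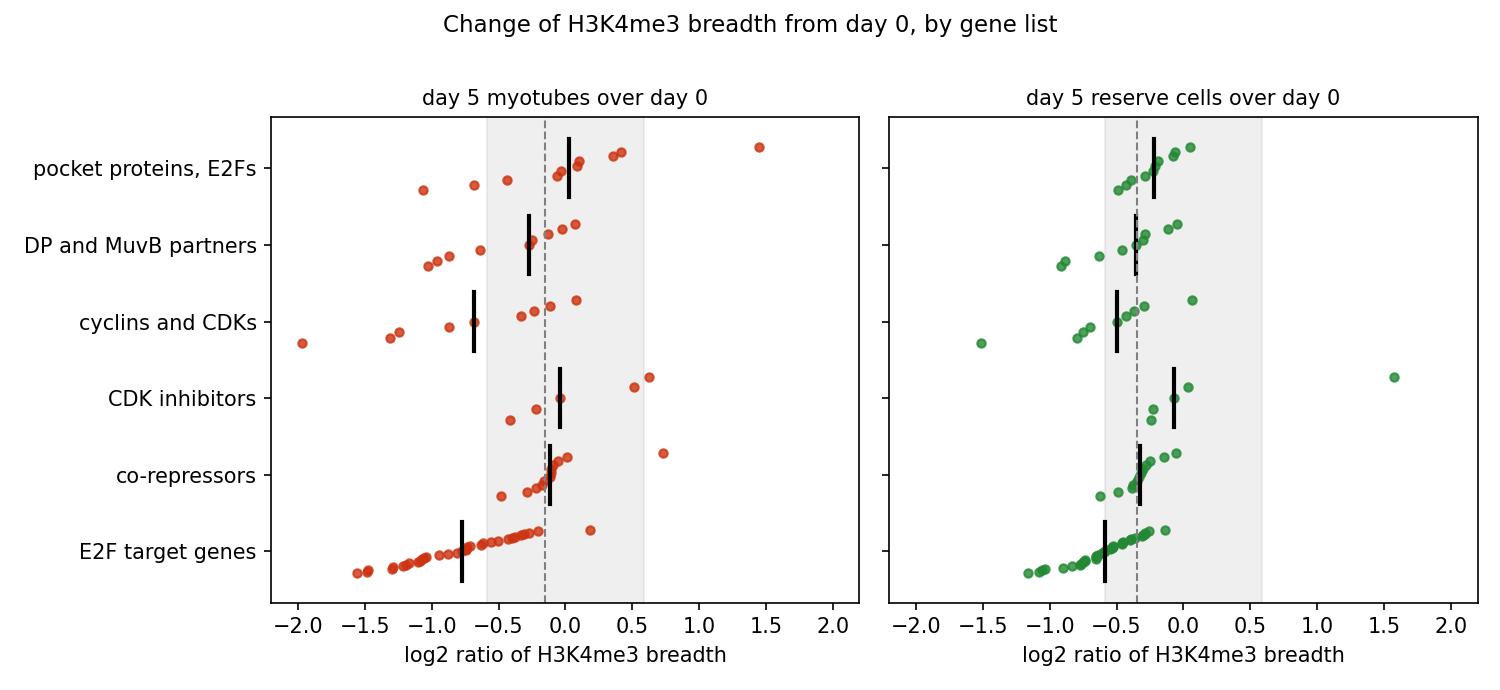
Log2 ratio of H3K4me3 breadth to day 0 (horizontal axis) in myotubes (left) and reserve cells (right), 1 point per gene with breadth in both libraries, by gene list, with the list's median as a black bar. The grey band spans a ratio of 1.5 either way, and the dashed line is the median of all protein-coding genes (-0.15 and -0.34); most E2F target genes lie left of the band in myotubes (23 of 33), and 2 of the 10 pocket protein and E2F genes do.

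MBD2 at day 0 was called at 14 of the 35 E2F targets (40.0%), beside 11.1% of all protein-coding genes and 19.0% of marked ones. The folds at these targets ran from 3.68 to 10.6, where the median of the day 0 MBD2 list was 5.88. The calls at targets were not recomputed with equal or stronger peak lists. The highest were Cdc45 (10.6) and Mcm7 (10.04), both of the replicative helicase, Cdk1 (9.31), the mitotic kinase, and Brca1 (8.61). Of these Mcm7 was also called in myotubes (5.63). At day 0 MBD2 was called at 3 of the 9 partners, led by Lin52 (54.4), a MuvB subunit, and Lin37 (14.7). It was also called at 3 of the 9 cyclins and kinases (Ccnd3 6.45, Cdk4 5.88, Ccna2 4.47). Cdkn2d (7.35) was the 1 inhibitor called. Of the 12 chromatin regulators 4 were called, Sin3a (75.7), Kmt5c (27.4), Arid4b (22.1) and Arid4a (16.5). Sin3a kept a call in every later library, with 27.2 for day 1, 4.17 for myotubes and 8.22 for reserve cells. Lin52 (13.7) and Kmt5c (12.4) were called again at day 1. Rbbp4, a partner without a day 0 call, was called in myotubes alone (4.29). No cyclin, kinase or inhibitor of these lists was called after day 0. The family's own calls, at folds of 5.74 to 5.88, were weaker than the strongest call of each list.

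E2f7, with the lowest ratio of the family in myotubes, was compared with all other protein-coding genes by the Euclidean distance of log2(breadth + 1) over the 4 libraries. Predicted genes and genes of the lists were passed over. The 4 nearest were Plscr1 (distance 0.0565), Ust (0.142), Stil (0.155) and Ckap2l (0.222). Stil, with 3408, 2947, 1687 and 2521 bp, encodes a centriole protein and Ckap2l a spindle protein, while Plscr1 is a phospholipid scramblase and Ust a sulfotransferase. The distance rests on 4 values per gene, each from 1 library.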

How the data were processed

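The 8 deposited peak lists, 1 per MBD2 or H3K4me3 library, came from Trim Galore, Bowtie2 on mm10, SAMtools and MACS2, per the submitters' processing notes. Tool versions, MACS2 settings, read totals and the use of IgG were not given in the sources used here. Deposited pileup values are a signal in fragments at the summit. Fold enrichment, a ratio to local background, is deposited too, per the file headers. Header names of the deposited −log10 columns were damaged, and MACS2's usual column order was followed.

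Peaks of the autosomes, X and Y were overlapped (at least 1 bp) with GENCODE M21 basic transcript starts, in Python 3.11.15 with pandas 2.3.3. The code was tested on simulated intervals. Background coverage is the lowest (pileup + 1)/fold − 1 of a list. The genes and lists were chosen with earlier results of these data known. The list genes named are those with a changing promoter call, the 4 highest MBD2 folds, and the 2 largest breadth differences each way. Cdkn2a, Cdkn2b and the neighbours Exoc3l, Lpar6 and Gm2788 were added after their values were seen. Alternatives covered promoter and breadth windows, starts, overlap, equal or stronger peak lists and fold size.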

Additional observations from a re-analysis of the deposited data

Results flagged for a closer look

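At 4 of the 10 genes the breadth of H3K4me3 from day 0 to day 5 went opposite ways in the 2 fractions, up in myotubes and down in reserve cells. The log2 change in myotubes minus that in reserve cells was 0.59 at E2f2 (0.36 and -0.23), 0.49 at Rb1 (0.41 and -0.08), 0.31 at E2f1 (0.10 and -0.21) and 0.14 at Rbl2 (0.08 and -0.06). The difference was not tested, since each fraction had 1 library, and both changes share the day 0 library. The share of all protein-coding genes that went opposite ways was not computed, so 4 of 10 has no share beside it. Over all protein-coding genes the median log2 ratio of myotubes to reserve cells was 0.18, above the difference at Rbl2. Relative to the median gene, reserve cells were also above day 0 at all 4 (0.12 at E2f2, 0.27 at Rb1, 0.13 at E2f1 and 0.28 at Rbl2), so the directions then did not differ. With lists cut to equal peak numbers, within 2 kb, or by promoter peak length, the myotube change was -0.08 at Rbl2 and -0.23 at E2f1, so neither then went up.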

How the results depend on the processing

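Of 311 values recomputed under 15 settings, 276 stayed within 1.5 times of the reported one and 35 moved; of these settings 12 were planned and 3 were chosen after seeing the data. None past 1.5-fold changed sign, but the smaller log2 ratios of Rbl2, E2f1, E2f3 and E2f8 from day 0 to myotubes did under some settings. Under the settings that recount promoter peaks (promoter width, starts, overlap, equal and stronger lists), all 10 promoters had H3K4me3 in each library, except 9 in reserve cells with the stronger 50% of peaks by q-value. The 3 MBD2 calls of day 0 became 0 with 111 peaks per list and with the stronger 50%, and 2 within 500 bp or with 200 bp of overlap. Within 2 kb the family's median breadth was 3021.5 bp at day 0 and 2694 bp in myotubes, the opposite order to that within 5 kb. The broadening of E2f4 depended on the window. Between days 0 and 1 the count of broader genes was 0 within 2 kb, within 10 kb, by length of promoter peaks, in the stronger 50% and on the downstream side alone. Between day 0 and myotubes it was 0 within 2 kb, 3 at the smaller fold size tried and 2 on the downstream side, where the log2 ratio of E2f4 was 0.66 (0.76 within 10 kb). From day 0 to myotubes the count of narrower genes was 1 at 2-fold and 1 relative to the median ratio of all genes. Between days 0 and 1 it was 1 at the smaller fold, and from day 0 to reserve cells 3 at the smaller fold, 1 in the stronger 50% and 1 on the downstream side. From reserve cells to myotubes the narrower count was 0 at 2-fold and 0 in the stronger 50%, and the broader count 4 at the smaller fold and 1 within 2 kb, within 10 kb, at 2-fold and relative to the median ratio. Downstream alone, the median breadth of the family was 2036, 1913 and 1837.5 bp at day 0, at day 1 and in reserve cells. Shares over all protein-coding genes were computed at 1.5-fold within 5 kb alone, so the counts under other settings have no share beside them. The 23 E2F targets narrower in myotubes became 16 within 2 kb, 19 relative to the median ratio of all genes and 30 on the downstream side alone. At 2-fold, 13 E2F targets, 1 partner and 3 cyclins and kinases were narrower in myotubes. At the smaller fold 1 inhibitor and 1 chromatin regulator were, and on the downstream side 1 chromatin regulator. The cause was not tested. No paired analysis was possible because each group has 1 library.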
